A study of Mus musculus with 22 samples.

Results

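The 10 genes described here encode enzymes that build, salvage or convert pyrimidine and purine nucleotides: Cad, Dhodh, Umps, Uck2, Ctps and Ctps2 on the pyrimidine side, and Ppat, Gart, Paics and Impdh2 on the purine side. They were chosen by name from the nucleotide pathways, and a probe belonged to a gene when its RefSeq accession in the scanner files was an accession of that gene. All 10 genes were found, on 14 of the 55681 probes, among 20018 genes that could be named in this way. Umps, Ctps2, Ppat and Impdh2 had 2 probes each. The brightest probe of each gene is described first, and the second where there was one. The 10 brightest probes, and the 4 second ones, passed the filter for signal above negative control spots, as did those of 16407 of the named genes.

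The samples were right lung lobes of 22 female C57BL/6 mice, 8 weeks old when the experiment began, collected 24 h after a single intratracheal instillation. Exposed mice received Mitsui7, a multiwalled carbon nanotube, at 18 µg (6 mice), 54 µg (5 mice) or 162 µg (6 mice), and 5 control mice received only the vehicle, saline (0.9% NaCl) that held 10% BAL. All mice were anaesthetised with Hypnorm and Dormicum. Each array compared Cy5-labelled lung RNA with the same Cy3-labelled universal mouse reference RNA from 11 mouse cell lines, and there was no dye swap. The values are therefore log2 ratios of lung to reference (log ratios below), so that an increase of 1 is a doubling, and a level of one probe cannot be set against that of another. Total RNA of a whole lobe mixes all of its cells. Fewer cells of a type and less RNA per cell cannot be told apart in such material.

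Pyrimidines are made from glutamine, bicarbonate and aspartate. Cad encodes the trifunctional protein that starts the route, Dhodh encodes the mitochondrial dehydrogenase that makes orotate, and Umps encodes the enzyme that turns orotate into UMP. CTP synthase, encoded by Ctps and Ctps2, then aminates UTP to CTP, a nucleotide needed for RNA, DNA and phospholipid synthesis, and Ctps is best known for its induction in activated lymphocytes. Uck2 is a salvage enzyme, a kinase that returns uridine and cytidine to their monophosphates. In the purine route, Ppat encodes the amidotransferase of the committed step, Gart and Paics encode multifunctional proteins of the following steps, and Impdh2 encodes the dehydrogenase that directs IMP towards GTP. Cells that prepare to divide or to make much RNA raise both routes, and MYC is a known activator of many of these genes, through the E-box CACGTG.

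The genes lie apart from each other in the mouse genome, with 1 exception (gene ends as annotated in GRCm38.p6). Ctps (Gene ID 51797) lies on chr4:120539868-120570276 and Uck2 (Gene ID 80914) on chr1:167222895-167285933. Paics (chr5:76951302-76967509) and Ppat (chr5:76913249-76951578) stand head to head, on opposite strands, and the annotated ends of the pair overlap by 277 bases. Cad is also on chromosome 5, Umps and Gart on chromosome 16, Dhodh on chromosome 8, Impdh2 on chromosome 9 and Ctps2 on chromosome X.

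RefSeq promoter windows, from 250 bases before to 50 bases after an annotated start, were at hand for 9 members, 12 windows in all, and not for Dhodh. Such a start need not be the outer end of the gene. The windows of Uck2 and Ctps2, and the second window of Ctps, lie wholly inside the annotated gene. The start used for Cad also lies inside its gene. The first windows of Ctps and Uck2 are shown because these were the members that rose, with the GC box GGGCGG (read on both strands) in capitals. Those of Paics and Impdh2 are shown because they were the members with an E-box CACGTG in a window, which stands there in capitals. Sequence outside the windows was not searched, so the other members may hold an E-box elsewhere. All are written 5′ to 3′ on the strand of the gene, in GRCm38.p6.
Ctps, chr4:120570227-120570526, minus strand: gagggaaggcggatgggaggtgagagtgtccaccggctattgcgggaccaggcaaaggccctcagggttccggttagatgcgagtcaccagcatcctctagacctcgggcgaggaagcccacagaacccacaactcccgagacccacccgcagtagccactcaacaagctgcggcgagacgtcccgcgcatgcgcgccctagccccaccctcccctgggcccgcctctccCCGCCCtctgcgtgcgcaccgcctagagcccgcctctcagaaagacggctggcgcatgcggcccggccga
Uck2, chr1:167285078-167285377, minus strand: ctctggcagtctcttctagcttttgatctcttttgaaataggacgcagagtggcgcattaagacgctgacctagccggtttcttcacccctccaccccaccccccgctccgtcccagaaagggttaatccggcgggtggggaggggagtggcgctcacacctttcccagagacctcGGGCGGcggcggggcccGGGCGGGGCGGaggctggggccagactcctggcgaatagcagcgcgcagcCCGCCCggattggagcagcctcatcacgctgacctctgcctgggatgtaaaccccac
Paics, chr5:76951052-76951351, plus strand: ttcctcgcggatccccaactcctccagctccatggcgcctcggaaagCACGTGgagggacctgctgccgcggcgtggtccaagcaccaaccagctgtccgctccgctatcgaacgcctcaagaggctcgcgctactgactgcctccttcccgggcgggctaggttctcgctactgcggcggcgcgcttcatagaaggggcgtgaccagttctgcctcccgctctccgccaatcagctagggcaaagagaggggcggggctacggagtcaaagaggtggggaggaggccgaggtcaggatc
Impdh2, chr9:108560186-108560485, plus strand: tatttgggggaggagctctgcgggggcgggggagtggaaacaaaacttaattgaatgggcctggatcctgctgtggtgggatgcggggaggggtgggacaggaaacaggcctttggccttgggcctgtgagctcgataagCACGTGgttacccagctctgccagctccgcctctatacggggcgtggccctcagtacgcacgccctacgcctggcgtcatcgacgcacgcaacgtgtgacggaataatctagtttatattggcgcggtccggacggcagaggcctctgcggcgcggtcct

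The Ctps window held 1 GC box and the Uck2 window 4, of which a pair overlap. A GC box was present in windows of 8 of the 9 members and in 35.7% of all 32851 windows, and an E-box in 2 of the 9 members and in 7.15% of all windows. CCAAT, on either strand, was in windows of 5 members against 37.4% of all windows. The palindrome TTCCNGGAA, a form bound by STAT proteins, was in none of the member windows and in 1.15% of all windows. Other forms of STAT site were not searched. The first windows of Ctps and Uck2 had 68.3% and 64.7% GC, where the median over all windows was 52.7%. These are matches of letters and carry no information on binding in these lungs.

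Ctps, the gene of CTP synthase 1, rose at every dose and by more than any other member. Uck2 rose at 18 and 162 µg and lay above all controls at 54 µg as well. The genes of the enzymes that assemble the pyrimidine and purine rings, Cad, Dhodh, Umps, Ppat, Gart and Paics, and the second CTP synthase gene Ctps2, were not called at any dose. A gene was called when limma gave an adjusted p of at most 0.05, with the Benjamini-Hochberg adjustment over all probes, together with a change of at least 1.5-fold. All comparisons with control used the same 5 control mice.

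At 18 µg, 2 of the 10 members were called higher, where 0.634% of the 16407 genes were, and 0 were called lower, where 1.43% of all genes were. At 54 µg, 1 member was called higher against 0.219% of all genes, and 0 lower against 0.134%. At 162 µg, 2 were called higher against 3.32%, and 0 lower against 3.53%. At an unadjusted p under 0.05, 4, 3 and 4 members passed at the rising doses, all of them with higher means, where 22.3%, 13.8% and 28.8% of all genes passed in either direction. The median log2 fold change over the 10 members was 0.09, 0.17 and 0.17 at 18, 54 and 162 µg, and over all genes -0.02, -0.01 and -0.01. The middle of the list thus lay within 0.2 of that of all genes on the log2 scale, and the calls rested on Ctps and Uck2.

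**Figure D1:**
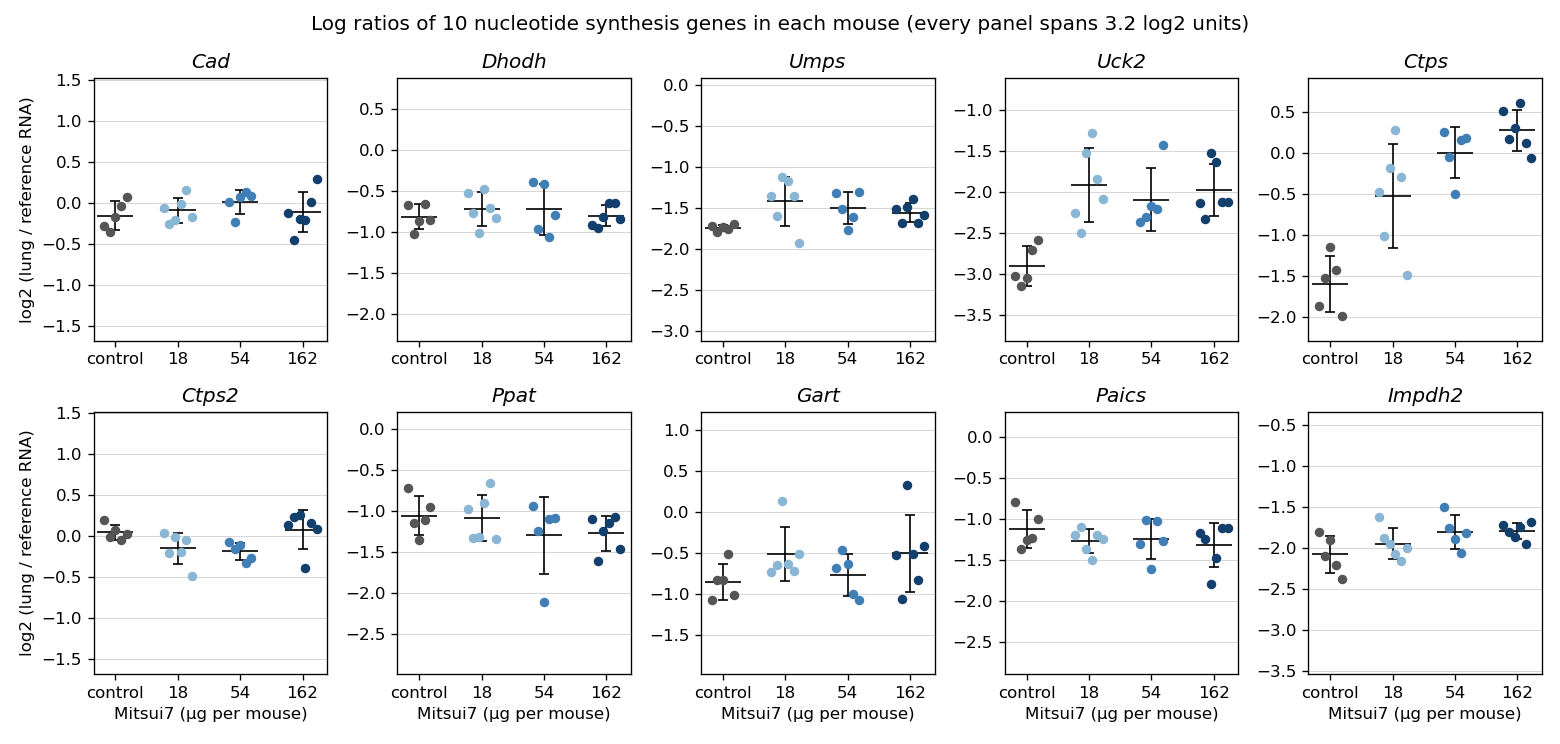
Log2 ratio of lung to reference RNA for each of the 10 genes (brightest probe) in each mouse; points are mice, bars are the mean ± SD of a group, the horizontal axis is the dose, and every panel spans the same range. Ctps climbs from controls between -1.99 and -1.15 to values between -0.07 and 0.61 at 162 µg, Uck2 stands above its controls at each dose, and the other panels show overlapping or nearly overlapping groups.

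The log ratios of Ctps in the 5 control mice were -1.87, -1.53, -1.15, -1.43 and -1.99. In the 18 µg group they ran from -1.49 to 0.28, with a median of -0.39. The 54 µg mice had 0.25, -0.06, -0.51, 0.15 and 0.18, and at 162 µg the lowest was -0.07, the median 0.23 and the highest 0.61. Every mouse given 54 or 162 µg lay above every control. At 18 µg 5 of 6 mice did, and the sixth, replicate 6, at -1.49, lay among the controls. The spread was widest at 18 µg, with an SD of 0.63 against 0.25 to 0.34 in the other groups.

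Ctps was 2.17-fold above control at 18 µg (log2 fold change 1.12 ± 0.25 SE, adjusted p = 0.0362). It was 3.17-fold above at 54 µg (1.66 ± 0.27, adjusted p = 0.0167), and 3.75-fold above at 162 µg (1.91 ± 0.25, adjusted p = 0.000369). Among the 16407 genes, Ctps ranked 48th, 30th and 40th from the highest log2 fold change at the rising doses. The mean ratio increased with dose, and the 162 µg group stood 0.79 ± 0.23 above the 18 µg group on the log2 scale, 6 mice against 6. With an adjusted p of 0.0675 that difference missed the threshold, and its 95% interval ran from 1.23-fold to 2.42-fold. After normalization, the change was in the lung channel. The group means of the log2 Cy5 signal went from 10.82 in controls to 11.89, 12.43 and 12.57. The Cy3 signal of the reference stayed between 12.30 and 12.42. Both signals were rebuilt from the loess-normalized ratios and from mean intensities that had been quantile-normalized between arrays. The probe was bright, 54.5 times the local background at the median, and was never saturated. The study itself picked Ctps from these samples as a gene that responded, so its direction here is not independent evidence.

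The arrays lay on 7 slides, of which 5 held 1 control mouse each. Set against the control of the same slide, Ctps was higher in 4 of 4 mice at 18 µg, by 0.52 to 1.70 on the log2 scale. The same was true of 3 of 3 mice at 54 µg, by 1.09 to 2.15, and of 4 of 4 at 162 µg, by 1.31 to 2.11. All of these mice lay above every control, so only the size of the differences is informative, not their direction. The mouse that lay among the controls, 18 µg replicate 6, was on a slide without a control and is not in this comparison. The 162 µg call stood without any single mouse, with log2 fold changes from 1.79 to 2.07. The calls at the lower doses were nearer the threshold. Ctps lost its call at 18 µg in 9 of the 22 fits that left out 1 mouse. The adjusted p was 0.135, 0.0707 and 0.125 without control replicates 1, 4 and 5, and 0.0805, 0.0815, 0.0566 and 0.103 without 18 µg replicates 1, 3, 4 and 5. It was 0.0518 and 0.0505 without 54 µg replicates 2 and 4, which enter through the shared estimate of slide and spread, and the log2 fold change stayed between 0.99 and 1.28 in all 22 fits. At 54 µg the call was lost in 5 of 22, with an adjusted p of 0.0746 and 0.0937 without control replicates 1 and 5, and of 0.0534, 0.0625 and 0.107 without 54 µg replicates 1, 2 and 4. The log2 fold change stayed between 1.51 and 1.88.

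Uck2 had log ratios of -3.02, -3.14, -3.04, -2.70 and -2.58 in the controls. The 18 µg mice ran from -2.50 to -1.28 with a median of -1.96, the 54 µg mice had -2.37, -2.30, -2.17, -2.20 and -1.42, and the 162 µg mice ran from -2.33 to -1.52 with a median of -2.11. All 17 exposed mice lay above all 5 controls, and the 3 dose groups overlapped each other. Uck2 was thus 1 of 10 members with no overlap at 18 µg, where 1.42% of all genes had every mouse above every control. At 54 µg it was 1 of 2 such members with Ctps (1.51% of all genes). At 162 µg it was 1 of 3, with Ctps and Umps (3.73% of all genes).

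In the fit, Uck2 was 1.80-fold above control at 18 µg (log2 fold change 0.85 ± 0.16, adjusted p = 0.0225) and 1.72-fold at 162 µg (0.78 ± 0.16, adjusted p = 0.00899). At 54 µg it was 1.64-fold above, but the adjusted p was 0.133. The level did not differ detectably between 162 and 18 µg, with a ratio of 0.956 and a 95% interval from 0.763 to 1.20. Unlike for Ctps, the mean was highest at the lowest dose, but the difference in dose pattern between the genes was not tested. Within slides Uck2 exceeded its control by 0.38 to 1.18 on the log2 scale, in 11 comparisons that shared 5 control mice. Their direction was given in advance, because all exposed mice lay above all controls. The 18 µg call was lost in 6 of the 22 fits that left out 1 mouse, with adjusted p of 0.0822, 0.0552 and 0.0595 without control replicates 1, 4 and 5 and of 0.0538, 0.0509 and 0.0697 without 18 µg replicates 1, 3 and 5. The 54 µg comparison passed without 54 µg replicate 3, at an adjusted p of 0.0289. The 162 µg call held in all 22 of these fits. In channel values rebuilt as for Ctps, the mean log2 Cy5 signal of Uck2 was 9.93 in controls and 10.71, 10.62 and 10.72 at the rising doses. Its Cy3 signal was 12.83 in controls and 12.62, 12.71 and 12.69. A lower reference signal thus made up part of the higher ratio.

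**Figure D2:**
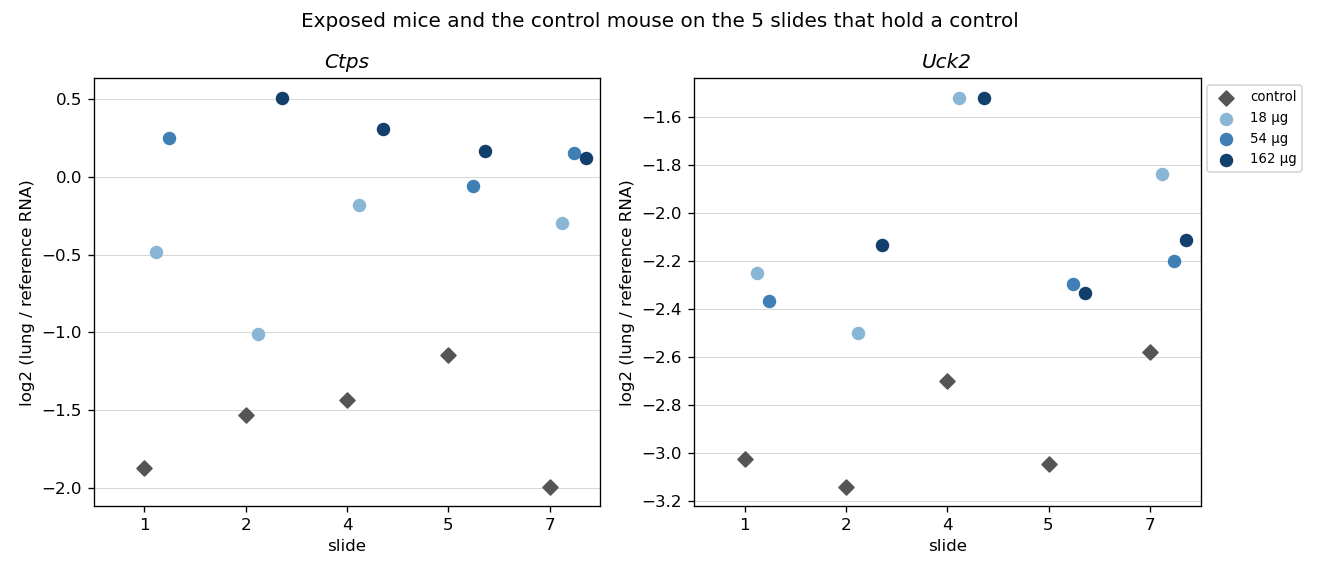
Log2 ratio of lung to reference RNA for Ctps (left) and Uck2 (right) on each of the 5 slides that held a control mouse; the diamond is the control and the circles, set to its right, are the exposed mice of that slide, coloured by dose. Each exposed mouse lies above the control of its own slide, by 0.52 to 2.15 for Ctps and by 0.38 to 1.18 for Uck2. The exposed mice shown all lie above all 5 controls as well, so that this direction was given.

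The calls of both genes varied with the normalization. When arrays were only centred on their median, in place of loess, the median of all genes moved to -0.26, -0.03 and -0.18 at the rising doses, and 0 members were called. Relative to that shift Ctps was still higher, by 0.88, 1.52 and 1.65 on the log2 scale, and Uck2 by 0.68, 0.68 and 0.64. In the lung channel alone, without the reference, Ctps was higher by 1.06, 1.65 and 1.78, and Uck2 by 0.61, 0.69 and 0.72, and Ctps was called at each dose and Uck2 at none. In the deposited ratios Ctps missed the threshold at 18 and 54 µg (adjusted p = 0.0896 and 0.0805) and Uck2 at 18 µg (0.0621), while both were called at 162 µg. Both genes were higher under every scaling tried, and the size and the call varied.

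Umps, which completes UMP synthesis, had the tightest controls of the list, between -1.79 and -1.69. Log ratios ran from -1.92 to -1.12 at 18 µg, from -1.76 to -1.30 at 54 µg and from -1.69 to -1.39 at 162 µg. The 162 µg mice lay above all controls, the lowest by less than 0.01, and in the other groups 1 mouse each fell at or below the controls. The fold was 1.26, 1.20 and 1.16 at the rising doses, with adjusted p of 0.226, 0.656 and 0.447. A second, dimmer Umps probe gave log2 fold changes of 0.06, -0.12 and -0.05, so that the probes disagreed on direction at the higher doses.

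The first enzymes of the pyrimidine route showed no detectable change. Cad had log ratios from -0.36 to 0.07 in controls and from -0.45 to 0.28 in exposed mice. Its fold was 0.995, 1.07 and 0.999, and the 95% intervals together ran from 0.856 to 1.26. The Cad probe was dim, at 1.95 times the local background, and the scanner software marked it well above background on 17 of 22 arrays, so a change in a low level may be understated. Dhodh ran from -1.03 to -0.66 in controls and from -1.06 to -0.40 in exposed mice. With folds of 1.02, 1.01 and 1.01 and intervals inside 0.855 to 1.19, a change of Dhodh of 1.5-fold lies outside these intervals at each dose.

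Ctps2 encodes the second CTP synthase, and its controls lay between -0.05 and 0.19. At 18 µg the log ratios ran from -0.49 to 0.04. The 54 µg mice, at -0.08, -0.16, -0.11, -0.33 and -0.27, all lay below all controls, as was the case for 1.80% of all genes. At 162 µg they ran from -0.39 to 0.25. The fold was 0.920, 0.896 and 1.09 (adjusted p = 0.669, 0.799 and 0.658), so that no change was called while Ctps rose in the same lungs. The second Ctps2 probe, which was dimmer (3.1 times the local background against 34.0), was lower at each dose, by 0.41, 0.26 and 0.24 on the log2 scale. It passed the p threshold at 18 µg (adjusted p = 0.0372) with a fold of 0.754, short of a 1.5-fold decrease. The 2 probes differ in sign at 162 µg, and the direction of Ctps2 there is uncertain.

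On the purine side, Ppat, the first committed enzyme, had controls between -1.36 and -0.72 and exposed mice between -2.11 and -0.66. The fold was 0.991, 0.862 and 0.922 (adjusted p = 0.985, 0.836 and 0.824). Its second probe gave 1.01, 1.02 and 1.18, of which none was called, so the probes disagreed on direction, and the brightest was dim itself, at 3.66 times the local background. Paics, its head-to-head neighbour, lay between -1.36 and -0.78 in controls and between -1.79 and -1.02 in exposed mice. It had folds of 0.939, 0.920 and 0.912, with adjusted p of 0.786, 0.886 and 0.655.

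Gart ran from -1.08 to -0.52 in controls, from -0.73 to 0.13 at 18 µg, from -1.07 to -0.47 at 54 µg and from -1.07 to 0.32 at 162 µg. Each dose group overlapped the controls, and 2, 1 and 2 mice lay above all of them. At 18 µg 1 of these was at -0.512, barely above the highest control at -0.518. The highest values of the control, 18 µg and 162 µg groups were all on slide 4. The fold was 1.27, 1.17 and 1.27 (adjusted p = 0.24, 0.764 and 0.179). The intervals at 18 and 162 µg, from 1.03 to 1.56 and from 1.04 to 1.57, reached past 1.5-fold.

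Impdh2 was the purine member with the clearest change. Its controls lay between -2.38 and -1.81, the 18 µg mice between -2.16 and -1.62, the 54 µg mice between -2.07 and -1.50, and the 162 µg mice between -1.96 and -1.68. At 162 µg 4 of 6 mice were above all controls. The fold was 1.11, 1.21 and 1.27, and at 162 µg the adjusted p was 0.0122, which passed the p threshold without reaching 1.5-fold. Within slides it was higher than control in 11 of 11 comparisons, which shared 5 control mice, by 0.09 to 0.42 on the log2 scale. Its second probe, which lacked 5 arrays because the spots were marked as outliers, gave 1.12, 1.17 and 1.21 with an adjusted p of 0.216 at 162 µg.

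**Figure D3:**
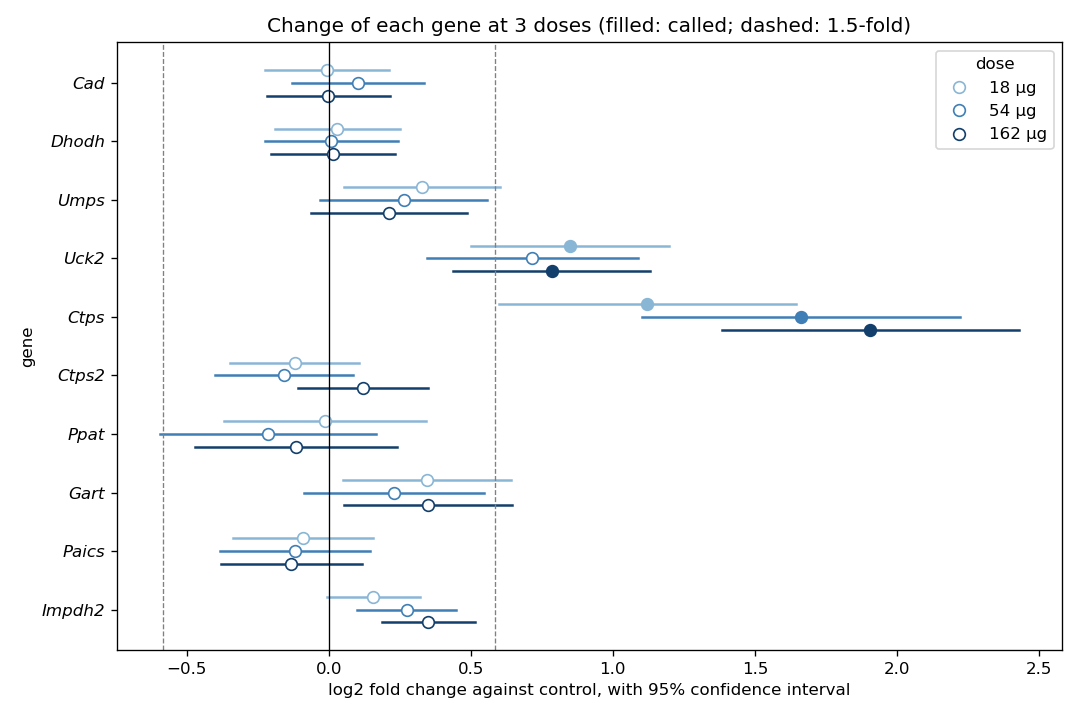
Log2 fold change against control (point) with its 95% confidence interval (line) for the 10 genes at 18, 54 and 162 µg; filled points were called and the dashed lines mark 1.5-fold in either direction. Ctps and Uck2 stand to the right of all others, and the other 8 genes lie between -0.21 and 0.35.

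Across the 8 members other than Ctps and Uck2, fold changes ran from 0.920 to 1.27 at 18 µg, from 0.862 to 1.21 at 54 µg and from 0.912 to 1.27 at 162 µg. The 95% intervals of 6, 7 and 7 of them lay wholly inside 1.5-fold in both directions. Between 162 and 18 µg, 0 of the 10 members were called, where 4.99% of all genes were. At an unadjusted p under 0.05 in limma, 3 members, Ctps, Ctps2 and Impdh2, were higher at 162 µg, a share near that of all genes that passed in either direction (26.5%). Over the 22 arrays the log ratio of Ctps went with that of Uck2 (Pearson r = 0.711), and Uck2 with that of Umps (0.697). Ppat and Paics had r = 0.392. These values describe arrays that share a reference, slides and the exposure contrast.

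By the same measure over 22 arrays, the genes most like Ctps among 14972 others with complete data were Timp1 (r = 0.929), Ch25h (0.921), Cd63 (0.902), Nolc1 (0.895) and Il6 (0.891). Timp1 encodes an inhibitor of metalloproteinases, Ch25h cholesterol 25-hydroxylase, Cd63 a tetraspanin of late endosomes, Nolc1 a nucleolar phosphoprotein and Il6 the cytokine interleukin 6. Their log2 fold changes at 162 µg were 3.59, 2.18, 0.86, 0.65 and 3.12, against 1.91 for Ctps.

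A further 85 genes, of nucleotide metabolism and 9 regulators such as Myc and Mycl, were followed in lists by role, and 82 of the 85 passed the expression filter. Of these, 5 rose and 0 fell at 18 µg. At 54 µg 0 were called in either direction, while at 162 µg 7 rose and 3 fell. The median log2 fold change over the 82 was 0.07, 0.13 and 0.11. The genes that rose were 6.10% of the 82 at 18 µg and 8.54% at 162 µg, above the shares of 0.634% and 3.32% among all genes, and those that fell at 162 µg were 3.66%, near the 3.53% of all genes. These shares were not tested against each other. The lists were chosen with earlier results of these data known, so a higher share may come from that choice.

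Prps1, the gene of a phosphoribosyl pyrophosphate synthetase that feeds both routes, rose at 18 µg (log2 fold change 0.62 ± 0.14, adjusted p = 0.0434) and was the only one of the 21 purine genes called there. At 162 µg 0 of these 21 genes were called. Psat1, the aminotransferase of serine synthesis, rose at 18 µg (0.81 ± 0.15, adjusted p = 0.0223) and 162 µg (1.07 ± 0.15, adjusted p = 0.000727), with 6 of 6 mice above all controls in each group. Mthfd1l, a mitochondrial folate enzyme that supplies formate, rose at 162 µg (0.75 ± 0.12, adjusted p = 0.00133). These were the calls among the 14 genes of one-carbon and serine supply.

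The kinases that turn nucleoside diphosphates into triphosphates split. Nme1 rose at 18 µg (0.80 ± 0.18) and 162 µg (0.73 ± 0.18, adjusted p = 0.0384 and 0.027), and Nme2 at 18 µg (0.74 ± 0.11, adjusted p = 0.00655). Nme3 fell at 162 µg (-0.61 ± 0.12, adjusted p = 0.00774), with 6 of 6 mice below all controls. Nme1 and Nme2 are neighbouring genes of closely related sequence, and how far their probes share signal was not tested. Of the 20 pyrimidine genes that passed the filter, Cda, cytidine deaminase, rose at 162 µg (0.69 ± 0.14, adjusted p = 0.0102, in 5 mice with a value). Cmpk2, a mitochondrial nucleotide kinase known as an interferon-induced gene, fell there (-0.67 ± 0.17, adjusted p = 0.0251). Uck1, the relative of Uck2, had log2 fold changes of -0.45, -0.31 and 0.00 and was not called.

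Among 17 breakdown genes, Xdh, xanthine dehydrogenase, rose at 162 µg (1.31 ± 0.18, adjusted p = 0.000549), as did Ada, adenosine deaminase (0.77 ± 0.15, adjusted p = 0.00523), each with 6 of 6 mice above all controls. Rrm2, the S-phase subunit of ribonucleotide reductase, rose at 18 µg (1.21 ± 0.26, adjusted p = 0.0317), with values of 0.25 and 0.59 at 54 and 162 µg that were not called. Myc rose at 162 µg (0.98 ± 0.17, adjusted p = 0.00312), with 0.48 and 0.67 at 18 and 54 µg that were not called, and its relative Mycl fell there (-0.60 ± 0.17, adjusted p = 0.046).

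**Figure D4:**
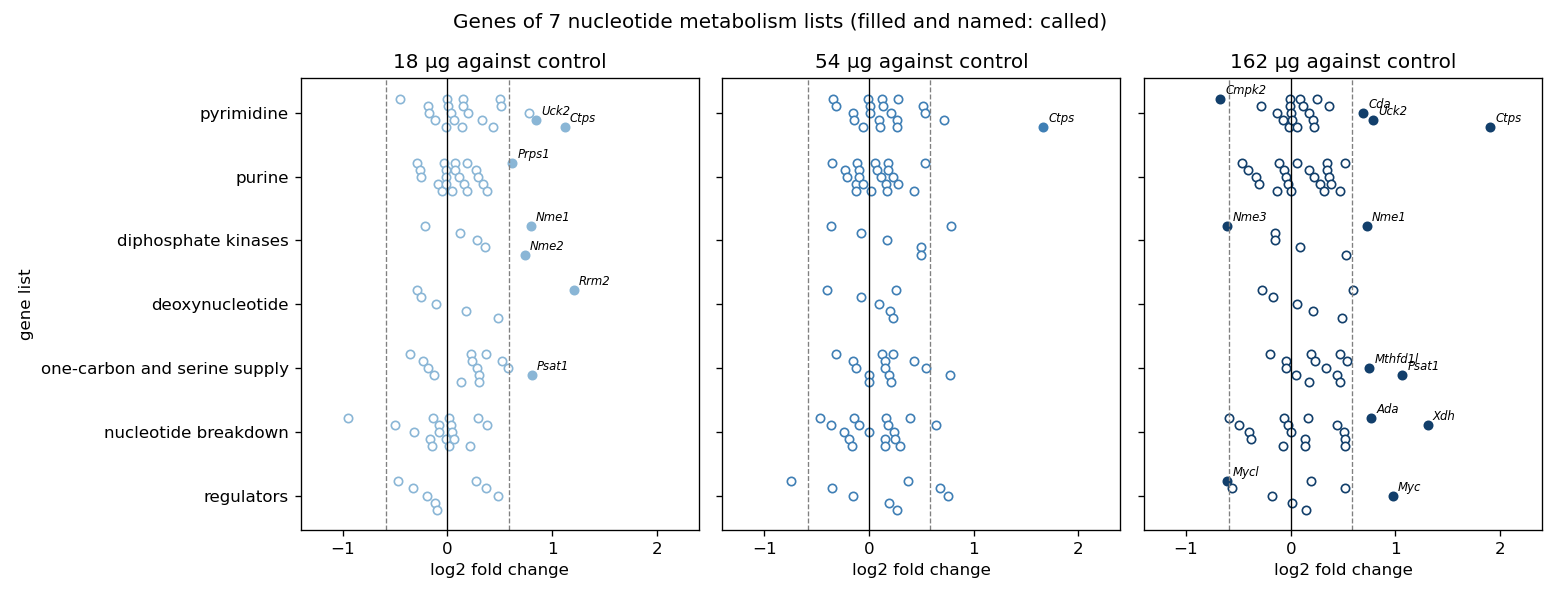
Log2 fold change against control at each dose for the genes of 7 lists, of nucleotide metabolism and regulators, that passed the expression filter. The 10 members are included in the pyrimidine and purine lists. Each circle is 1 gene, filled and named where called. The dashed lines mark 1.5-fold, and the vertical scatter within a list has no meaning. Ctps is the gene farthest to the right at 54 and 162 µg, and Rrm2 at 18 µg.

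Markers of some cell types and of dividing cells moved with exposure as well. All 10 lung markers, among them Sftpc, Scgb1a1, Ager and Cdh5, were detected and 0 were called at any dose. The mean log ratio over 23 of 24 proliferation markers (Aurkb was not detected) ran from -3.20 to -2.92 in controls and from -2.80 to -2.01 at 18 µg, with no overlap, and all 23 had higher means there, 6 of them called. It ran from -3.04 to -2.86 at 54 µg and from -3.02 to -2.24 at 162 µg. Both ranges overlapped the controls. Of the 23 markers, 14 and 22 had higher means at these doses, and 0 and 1 were called higher. Rrm2, Ctps and Uck2 were called higher at 18 µg as well, and a link between them and these markers was not tested.

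The mean log ratio over 9 neutrophil markers ran from 1.49 to 4.11 in control mice, with a median of 1.68. In the exposed groups the medians were 2.01, 2.24 and 2.62 at the rising doses, with ranges of 1.87 to 2.24, 1.75 to 2.56 and 1.69 to 4.03. The medians over mice were thus higher at each higher dose, while the ranges overlapped. In the fit with slide, 4 of the 9 markers had higher means at 18 µg, with a median log2 fold change of -0.03. At 54 µg 6 did, with a median of 0.17, and at 162 µg 7 did, with a median of 0.64. At 162 µg Retnlg stood at 1.36 and Cxcr2 at 1.23, while Camp and Csf3r were lower, each at -0.22. Of the 9 markers, 0 were called at any dose. Of 9 monocyte and macrophage markers, Chil3 was called higher at 18 µg and Marco at 162 µg, while the list mean overlapped the controls (2.74 to 3.71) at each dose. Of 8 lymphocyte markers, Ms4a1 fell at 162 µg, where the list mean ran from 0.19 to 0.58 against 0.42 to 1.13 in controls. Of 6 ciliated cell markers, Ccdc39 and Rsph1 fell at 162 µg, and the list mean had a lower median over mice than in controls at each dose. Heart muscle markers ranged widely in every group, from 0.58 to 5.26 over all mice, and 0 were called. The part of these cells in the values of Ctps and Uck2 was not tested.

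Array quality differed between mice and between groups. The share of spots above the negative controls was 70.0% to 77.7% in control arrays and ran from 55.5% to 77.9%, 58.3% to 78.9% and 53.5% to 83.5% at the rising doses. The arrays with the lowest shares were thus of exposed mice. Lung-channel signal stood at 1.91 times the background around the spots in control arrays (median) and at 1.40, 1.44 and 1.65 times in the exposed groups. The part of array quality in the values of the members was not tested.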

How the data were processed

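Lung RNA was hybridised to 22 two-colour Agilent arrays on 7 slides. The authors deposited scanner intensity values (median signals without background subtraction) for each array (per the file headers, from version 10.7.3.1 of Feature Extraction) and normalized log2 ratios whose normalization is not given in the sources used here. The intensities were the main source and the deposited log2 ratios an alternative.

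Outlier spots were left out, log2(Cy5/Cy3) was normalized within each array by loess (span 0.3), and replicate spots of a probe were reduced to their median. Spots were above background when Cy5 exceeded the trimmed mean (5%) plus 3 trimmed SD of 308 negative control spots. A probe passed when this held on 80% of the arrays of a group, as for 39430 probes. Of 55681 probes, 26413 were named through RefSeq accessions (GRCm38.p6, used for names, gene positions and promoter windows; the array headers name another build). A gene is shown by its brightest probe. 29268 probes have no name here.

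limma 3.58.1 in R 4.3.3 (data.table, version 1.17.8) fitted dose and slide as fixed effects over all arrays, leaving 12 residual degrees of freedom. The study used the same model terms with another test. P-values were adjusted by Benjamini-Hochberg over all probes, intervals are 95% intervals without adjustment, and SE and SD are on the log2 scale. In data simulated on 51672 probes, with 200 changed by 1.5 on the log2 scale, 99.5%, 94.5% and 97% of them were called at 18, 54 and 162 µg. A change of 1.5 on the log2 scale is larger than that of any member but Ctps. These shares therefore do not show how often smaller changes would be called. The number of arrays limits the precision. Named genes were all members, pathway genes called at any dose, up to 20, and the 5 genes most correlated with Ctps; Uck1 was added after its values were seen. The members and lists were chosen with earlier results of these data known, and an item left out of the marker lists is not reported here. Slides are numbered in order, and 2 of the 7 held no control. Alternatives covered background correction, normalization, the slide term, the expression filter, the probe of a gene and leaving out each mouse.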

Additional observations from a re-analysis of the deposited data

Results flagged for a closer look

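Of 40 sets of values checked, 10 genes in 4 groups each, 4 held a mouse whose gap to the nearest other, divided by the range of its group, was above Dixon's 95% critical value; chance gives about 1 in 20. Ctps2 in 162 µg replicate 4 had a log ratio of -0.39, the nearest other mouse being at 0.08. Uck2 in 54 µg replicate 5 was at -1.42, with the nearest at -2.17. Ppat in 54 µg replicate 3 was at -2.11, with the nearest at -1.25. Gart in 18 µg replicate 3 was at 0.13, with the nearest at -0.51. Without 54 µg replicate 5 the log2 fold change of Uck2 at 54 µg was 0.56 in place of 0.72, and without 54 µg replicate 3 that of Ppat was -0.03 in place of -0.21.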

How the results depend on the processing

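Ctps and Uck2 had higher means at each dose under all alternatives run. Median centring and no normalization both gave 0 members called at 18, 54 and 162 µg. The Cy5 channel alone gave 1 at 18 µg and 1 at 162 µg, and the deposited table gave 0 at 18 µg and 0 at 54 µg. With slide as a random block, 1 member was called between 162 and 18 µg. Without single mice the number called ran from 0 to 2 at 18 µg, from 0 to 2 at 54 µg and from 0 to 1 between 162 and 18 µg (1 without 18 µg replicate 4, 54 µg replicate 3 or 54 µg replicate 5), and was 2 at 162 µg in every such fit. The median over the members became -0.18 at 18 µg and -0.10 at 162 µg under median centring, -0.35, 0.32 and -0.12 at the rising doses without normalization, and 0.072 at 162 µg with the mean over the probes of a gene. The median of all genes then stood at -0.42, 0.13 and -0.21 without normalization.

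Whether replicate numbers paired the mice could not be decided, because some same-numbered mice also shared a slide. Deviations of same-numbered mice correlated from -0.26 to 0.627 (median 0.208), over 0.1 in 18 of 31 pairs. Differently numbered mice of different groups gave a lower median, -0.065, with 36 of 150 pairs over 0.1. For slide mates the middle value was 0.269, with 18 of 24 pairs over 0.1. Of the 22 mice, 12 correlated best with their own number. With the replicate block added to slide, 2, 0 and 1 members were called at the rising doses, the median at 54 µg was 0.29, Ctps at 54 µg had an adjusted p of 0.131 and Uck2 at 162 µg one of 0.0666, with 7 residual degrees of freedom.

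The other sign changes were of members that were not called, each with an adjusted p of at least 0.202. Under median centring they were at 18 µg Dhodh (-0.32), Umps (-0.083) and Impdh2 (-0.28), at 54 µg Dhodh (-0.032) and at 162 µg Dhodh (-0.26), Umps (-0.098) and Ctps2 (-0.17). Without normalization they were at 18 µg Dhodh (-0.48), Umps (-0.24), Gart (-0.10) and Impdh2 (-0.45), at 54 µg Paics (0.025) and at 162 µg Dhodh (-0.28), Umps (-0.12) and Ctps2 (-0.19). In Cy5 alone they were at 18 µg Cad (0.39) and Ppat (0.086), at 54 µg Paics (0.0016) and at 162 µg Cad (0.17) and Ppat (0.057). In the deposited table they were Cad (0.098) and Ppat (0.011) at 18 µg, Ppat (0.0052) at 54 µg and Cad (0.046) at 162 µg. Cad also turned at 162 µg with normexp (0.013), and at 18 and 162 µg without a slide term (0.064 and 0.041), with slide as a random block (0.035 and 0.024) and with the replicate block (0.055 and 0.054), where Ppat at 18 µg was 0.096. In fits of the compared groups alone, Cad at 18 µg was 0.062 and Dhodh at 54 µg -0.012. With the mean over probes, Ppat was 0.0035 at 18 µg and 0.060 at 162 µg, and Ctps2 -0.061 at 162 µg. Without single mice, Cad ran from -0.065 to 0.037 at 18 µg and from -0.056 to 0.059 at 162 µg, Dhodh from -0.021 to 0.10, from -0.053 to 0.10 and from -0.039 to 0.087 at the rising doses, and at 18 µg Ppat from -0.095 to 0.047 and Paics from -0.18 to 0.0047. The causes were not tested. Dim probes, those of Cad and Ppat above all, limit what can be said of those genes.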
